A study of Mus musculus with 2 samples.

Results

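The miR-99, miR-100 and miR-125 families were described in small RNA libraries of mouse gastrocnemius, a large muscle of the calf. The animals were B6CASTF1/J males, an F1 cross of C57BL/6J and CAST, at an age of 36 days. The loci were chosen by name, as the 6 genes annotated as Mir99a, Mir99b, Mir100, Mir125a, Mir125b-1 and Mir125b-2 among 2202 microRNA genes. The series holds 2 libraries, replicates 1 and 2, whose labels number the males apart, under 1 donor identifier, within 1 group. There was no second condition. The results are therefore levels of the loci, ratios between them, and differences between the 2 libraries.

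MicroRNAs are cut from a hairpin precursor, whose arms give a 5p and a 3p mature strand. Bases 2 to 8 of the mature strand, the seed, pair with target messenger RNAs and define a family. The miR-99 and miR-100 family is known for repressing components of growth signalling such as the kinase mTOR, and miR-125, the relative of the worm microRNA lin-4, for acting in differentiation. In cultured mouse myoblasts miR-125b is known to restrain differentiation and to target insulin-like growth factor 2. In animals these families are encoded side by side with let-7, which promotes the differentiated state, and the mouse carries 3 such clusters, each with a miR-99 or miR-100 locus, a let-7 locus and a miR-125 locus.

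The mature 5p sequences are shown first because they decide which loci can be told apart by a read. They come from RefSeq (GRCm38.p6), where all 6 loci had mature sequences, and capitals mark the seed.
miR-99a-5p: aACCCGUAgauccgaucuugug
miR-100-5p: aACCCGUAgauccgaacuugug
miR-99b-5p: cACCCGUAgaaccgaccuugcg
miR-125a-5p: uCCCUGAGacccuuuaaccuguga
miR-125b-5p: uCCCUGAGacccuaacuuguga
The first 3 shared the seed ACCCGUA, and no other mature name of the 1679 in that table carried it. Counted from 1 at the 5′ end, miR-99a-5p and miR-100-5p differed by 1 substitution, U16A, with the miR-99a base first. The substitutions from miR-99a-5p to miR-99b-5p were A1C, U11A, U16C and U21C. The miR-125 strands shared the seed CCCUGAG and their first 13 bases. That seed was also carried by miR-351-5p, miR-6367 and miR-6394.

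A single strand, miR-125b-5p, was encoded at more than 1 annotated hairpin among the 6 loci. In the GENCODE M21 transcripts, the hairpins of Mir125b-1 and Mir125b-2 held some of the same 20-base windows. The shared stretch was 24 bases long and held the whole of miR-125b-5p. Of the 20-base windows, 5 of 58 in Mir125b-1 and 5 of 52 in Mir125b-2 were shared, and the rest, the 3p strands included, occurred in no other annotated hairpin. None of the windows of Mir99a, Mir99b, Mir100 or Mir125a was found in another hairpin. The map of mature arms on the hairpins shows this layout.

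**Figure D1:**
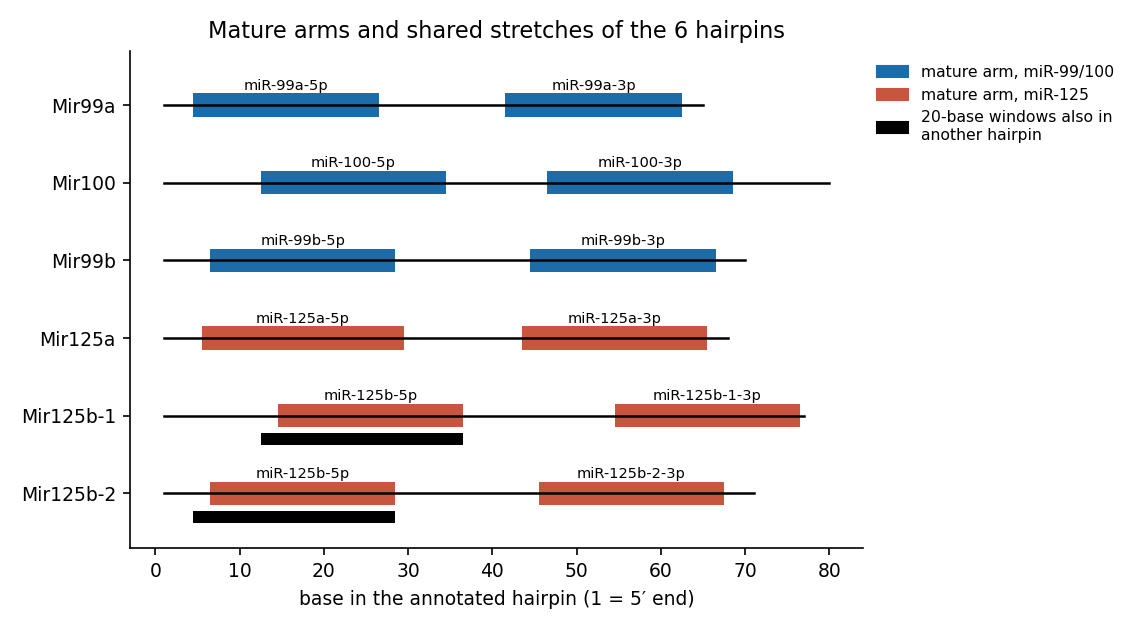
The 6 annotated hairpins drawn from base 1 at the 5′ end, with mature arms as coloured bars and, in black, the stretch covered by 20-base windows found in another annotated hairpin. Mir125b-1 and Mir125b-2 alone carry a black bar, which spans 24 bases and covers miR-125b-5p.

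The tables list 70.4% of all reads of replicate 1 and 73.3% of replicate 2 as aligned to several loci, and these appear to be in no gene's count. Counts of Mir125b-1 and Mir125b-2 are therefore uncertain and can miss reads of miR-125b-5p, while counts of the other 4 loci rest on sequence held once among annotated hairpins. The tables do not give the arm a read came from. A count thus covers both strands of its hairpin. The range of counted reads per library was 3219740 to 4134880, and the limit that a count of 0 allows was 0.726 CPM for replicate 1 and 0.932 CPM for replicate 2. CPM here is a gene's count per 1000000 reads counted on the strand of a microRNA gene. It was not divided by length, because a read of these libraries is a small RNA of under 30 per the labels, and reads per molecule were not calibrated between sequences.

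All 9 skeletal muscle microRNAs checked had counts in both libraries and together held 2.74% of counted reads in replicate 1 and 3.04% in replicate 2. Most of these reads were of 1 gene, Mir206, with 106820 counts of the 113160 of the list in replicate 1 and 92373 of 98014 in replicate 2. Mir1a-1, Mir133a-1, Mir133a-2 and Mir133b were low. They had from 13 counts (Mir133a-2) to 113 (Mir133a-1) in replicate 1 and from 11 to 70 in replicate 2. Each shares 20-base windows with another hairpin. Mir1a-2 shares such windows too and had 1301 counts in replicate 1 and 1117 in replicate 2. In a whole muscle, fewer cells of a type and less RNA per cell cannot be told apart.

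The 6 loci lie on the plus strand of 3 chromosomes (mm10, GENCODE M21). Mir99a (ENSMUSG00000065530.1) lies at chr16:77598936-77599000 and Mir125b-2 (ENSMUSG00000065472.1) at chr16:77646273-77646343, both in introns of the noncoding RNA Mir99ahg. The let-7 locus between them, Mirlet7c-1, is separated by 656 bases from Mir99a and by 46522 bases from Mir125b-2. Mir125b-2 also falls partly in an exon of C130023A14Rik on the same strand. Opposite Mir99a lies an intron of the protein-coding gene Gm11146. Mir100 (ENSMUSG00000093011.1) lies at chr9:41531425-41531504 and Mir125b-1 (ENSMUSG00000093354.1) at chr9:41581926-41582002, both in introns of the noncoding RNAs 3110039I08Rik and Gm49317, with 50421 bases between them and Mirlet7a-2 in that interval. Opposite Mir100 the annotation places an exon of the noncoding RNA Gm48742. Mir125b-1 also falls inside an exon of the short noncoding RNA Gm28119. Mir99b (ENSMUSG00000065396.1) at chr17:17830188-17830257 and Mir125a (ENSMUSG00000065479.2) at chr17:17830812-17830879 are 554 bases apart around Mirlet7e. They lie in the protein-coding gene Spaca6, Mir99b in an intron and Mir125a partly in an exon. None of the 6 overlapped a microRNA on the opposite strand, and all had 0 opposite-strand reads in both libraries.

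The miR-99 and miR-100 loci held far more counted reads than the miR-125 loci. Mir99a was the highest of the 6, ahead of Mir100, Mir125a and Mir99b, with Mir125b-1 and Mir125b-2 last. Together they held 3.79% of counted reads in replicate 1 and 3.32% in replicate 2, a mean of 3.56% ± 0.337 (SD, n = 2). The exact Clopper-Pearson 95% intervals ran from 3.78 to 3.81% for replicate 1 and from 3.30 to 3.34% for replicate 2. Such intervals cover counting error only, because they treat the reads of 1 library as independent draws. Copies made by PCR are not independent molecules, so the intervals can be too narrow.

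Mir99a had 106361 counts in replicate 1 and 69889 in replicate 2, which is 25723 and 21706 CPM. The locus averaged 23715 ± 2840.1 CPM (SD, n = 2 here and below) and was in place 11 of all genes in replicate 1 and place 12 in replicate 2. It held 66.6% ± 1.68 of the reads of the 6 loci, more than the other 5 together in both libraries.

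Mir100, the near-identical relative of Mir99a, had 30833 and 24264 counts, or 7457 and 7536 CPM. Its mean was 7496 ± 56.0 CPM, and on this scale of total counts its coefficient of variation of 0.747% was the smallest of the 6. Under TMM scaling, described with the comparison of the libraries, Mir99b, Mir99a and Mir125a differed less between the libraries than Mir100. It was in place 24 by mean level.

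Mir99b had 4988 and 3482 counts, or 1206 and 1081 CPM. The mean was 1144 ± 88.3 CPM, which made it the lowest of the seed ACCCGUA loci in both libraries. Within that family Mir99a held 73.2% ± 2.28 of the reads, Mir100 23.3% ± 2.24 and Mir99b 3.54% ± 0.0411.

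Mir125a had 12630 and 8121 counts, or 3054 and 2522 CPM. The mean was 2788 ± 376 CPM, in place 37. Mir125a held 87.0% ± 1.76 of the reads counted at miR-125 loci.

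Mir125b-1 had 1181 and 619 counts, or 286 and 192 CPM, with a mean of 239 ± 66.0 CPM. Mir125b-2 had 912 and 460 counts, or 221 and 143 CPM, with a mean of 182 ± 54.9 CPM. Both were lower in replicate 2, and their coefficients of variation of 27.6% and 30.2% were the largest of the 6. These low values appear to be counts of reads aligned to 1 locus, and they set no upper limit on miR-125b.

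**Figure D2:**
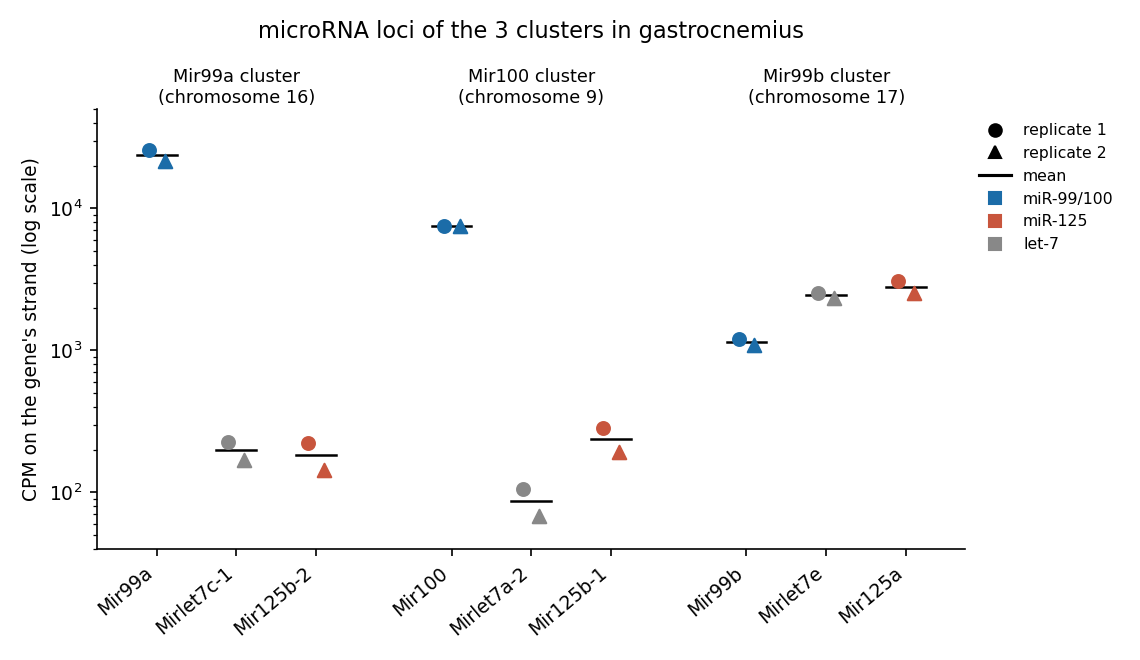
CPM on the gene's strand (log axis) of the 9 loci of the 3 clusters, with 1 point per library and a line at the mean of 2. In the Mir99a and Mir100 clusters the miR-99 or miR-100 locus stands above both neighbours, while in the Mir99b cluster Mir99b, at 1206 and 1081 CPM, stands below both.

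By mean CPM of counted reads, 4 of the 6 loci were among the first 100 of 2202 microRNA genes. The plot of level by rank shows their places, in which reads aligned to several loci appear to have no part. The genes nearest to each locus in mean level give a scale for its level. Mir99a stood between Mir206, a skeletal muscle microRNA, and Mir30a, and its order against Mir30a turned between the libraries (log2 ratio 0.15 in replicate 1 and −0.16 in replicate 2). Mir100 stood between Mir335 and Mir139 and was above Mir139 in both libraries by 0.14 ± 0.02 on the log2 scale, but its order against Mir335 turned. Mir125a followed Mir28a in both libraries. Mir99b, between Mir532 and Mir196a-2, changed order with both. Mir125b-1 lay between Mirlet7a-1 and Mir500 and changed order with both. Mir125b-2 was below Mir494 in both libraries, and its order against Mir467e turned. In all, 4 of the 12 neighbours kept their order against the locus in both libraries and 8 did not. Of the 4, Mir206 differed from Mir99a by less than the spread of 2 libraries, with a log2 ratio of Mir99a over Mir206 of −0.20 ± 0.28.

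**Figure D3:**
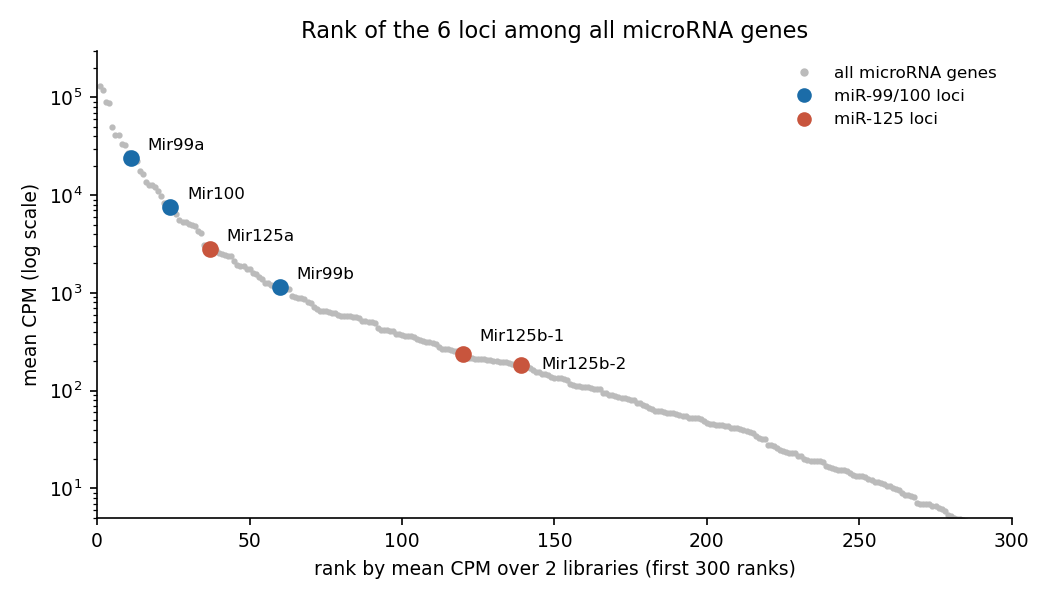
Mean CPM over 2 libraries (log axis) against rank for the first 300 ranks of all microRNA genes, with the 6 loci in colour. Mir99a is in place 11, Mir100 in place 24, Mir125a in place 37 and Mir99b in place 60, while Mir125b-1 and Mir125b-2 are in places 120 and 139.

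Ratios between loci of a family were large against their spread. The miR-99 and miR-100 loci together exceeded the miR-125 loci together 10.1-fold, with a log2 ratio of 3.34 ± 0.10. Counts of Mir125b-1 and Mir125b-2 can miss reads of miR-125b-5p, so this ratio can overstate the distance. Within the first family Mir99a exceeded Mir100 3.15-fold (log2 1.66 ± 0.18) and Mir99b 20.7-fold (log2 4.37 ± 0.06). Mir100 exceeded Mir99b 6.56-fold (log2 2.71 ± 0.12).

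Within the miR-125 family Mir125a exceeded Mir125b-1 11.8-fold (log2 3.57 ± 0.21) and Mir125b-2 15.6-fold (log2 3.97 ± 0.25). The 5p strand of Mir125a is held at 1 hairpin and miR-125b-5p at 2. These ratios are thus not a comparison of 5p strands and can overstate the distance. Mir125b-2 was below Mir125b-1 by a log2 ratio of −0.40 ± 0.04, with −0.37 in replicate 1 and −0.43 in replicate 2. That order appears to concern only the reads that could be placed at 1 locus.

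The 3 clusters differed in which locus led. In the Mir99a cluster Mir99a took 98.4% ± 0.214 of the reads of the 3 loci, 133-fold above Mir125b-2 (log2 7.06 ± 0.27) and 121-fold above Mirlet7c-1 (log2 6.92 ± 0.14). In the Mir100 cluster Mir100 took 95.8% ± 1.17, 32.0-fold above Mir125b-1 (log2 5.00 ± 0.41) and 88.6-fold above Mirlet7a-2 (log2 6.47 ± 0.46).

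In the Mir99b cluster the order was the other way round. Mir99b took 18.0% ± 0.319 of the reads, Mirlet7e 38.4% ± 1.44 and Mir125a 43.7% ± 1.76. Mir99b was below Mir125a by a log2 ratio of −1.28 ± 0.08 and below Mirlet7e by −1.09 ± 0.03. Mir125a was above Mirlet7e by 0.19 ± 0.11, with 0.27 in replicate 1 and 0.11 in replicate 2.

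Sequence sharing ran along the same lines as these levels. Mirlet7c-1 and Mirlet7a-2, the let-7 neighbours in the first 2 clusters, share 20-base windows with each other and with Mirlet7c-2 or Mirlet7a-1, and had 197 ± 42.5 and 86.6 ± 26.7 CPM. Mirlet7e, which shares none, had 2442 ± 140.2 CPM. In each of the first 2 clusters the locus with no shared window was thus the one with most reads, and in the Mir99b cluster all 3 loci were of that kind. The part of sharing in the cluster ratios was not tested, because the reads aligned to several loci are not divided among loci.

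Mir125b-2 and Mirlet7c-1 were close, with a log2 ratio of −0.14 ± 0.13 (−0.05 and −0.23). Mir125b-1 exceeded Mirlet7a-2 2.77-fold (log2 1.47 ± 0.05). All 15 pairs kept their direction in both libraries. With 2 libraries the smallest p of an exact sign-flip test, two-sided, is 0.5, so no p is given.

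**Figure D4:**
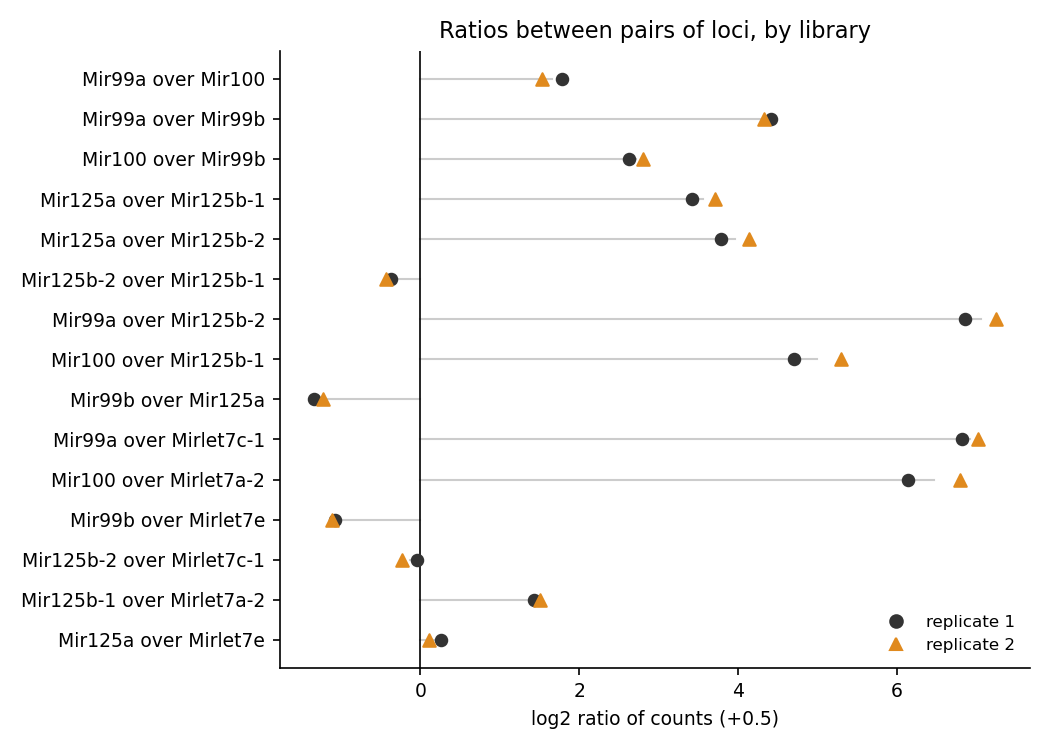
Log2 ratio of counts (+0.5) for 15 pairs of loci, with 1 point per library and a grey line to the mean. All 15 lie on the same side of 0 in both libraries, from −1.28 for the mean of Mir99b over Mir125a to 7.06 for Mir99a over Mir125b-2.

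Relatives outside the clusters were set beside the 6 loci. The miR-10 family, encoded within Hox clusters, resembles miR-100 along its middle: miR-100-5p and miR-10a-5p share a run of 11 bases that starts at base 6 of miR-100-5p and base 7 of miR-10a-5p, while their seeds differ. The miR-99 and miR-100 loci exceeded Mir10a and Mir10b together 1.92-fold (log2 0.94 ± 0.24). Mir99a alone exceeded Mir10b 1.88-fold (log2 0.91 ± 0.33), with Mir10b at 12572 ± 1321 CPM and Mir10a at 4255 ± 26.3 CPM. Among carriers of the miR-125 seed, the miR-125 loci exceeded the X-linked Mir351 5.48-fold (log2 2.45 ± 0.14), and Mir351 had 582 ± 33.1 CPM. Mir6367 and Mir6394, added after the seed search, had 0 counts in both libraries.

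The 2 libraries were compared last, as the log2 ratio of replicate 2 over replicate 1 scaled by TMM, in the 261 genes that averaged 10 CPM or more. All 6 loci passed that minimum. None was past a log2 ratio of 0.5 in size, which 11.9% of all genes tested were (9.58% on the side lower in replicate 2). With a minimum of 100 CPM, which all 6 loci also passed, 3 of 165 genes were past it. Of the 6 loci 2 were higher in replicate 2, where 44.1% of all genes tested were, and neither share is a result about the loci.

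Both miR-125b loci were lowest in this comparison and the other 4 lay between −0.11 and 0.18. Mir100 was higher in replicate 2 by 0.18 (exact 95% interval from counting error alone, 0.16 to 0.21), and Mir99b did not differ beyond counting error at 0.0093 (−0.05 to 0.07). Mir99a was lower by a log2 ratio of −0.08 and Mir125a by −0.11. Mir125b-1 had −0.40 (−0.55 to −0.26) and Mir125b-2 had −0.46 (−0.62 to −0.30), and 31 of 261 genes were lower than Mir125b-2. Most of those 31 had a mean below 100 CPM, a level under that of all 6 loci. The median of the 6 loci was −0.09, beside −0.05 over all genes tested. With 1 library a side these ratios have no replicate check.

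The neighbours of the lower loci went the same way, with −0.27 for Mirlet7c-1 and −0.47 for Mirlet7a-2, while Mirlet7e had 0.05. The 4 loci with shared windows were thus the lower ones among the 9 of the clusters. Those 4 were also the lowest of the 9 in mean level, from 86.6 CPM (Mirlet7a-2) to 239 CPM (Mir125b-1). Marker loci with shared windows went both ways. Mir1a-1 had 0.41, Mir133b 0.33, Mir1a-2 0.31 and Mir146 0.30, while Mir133a-1 had −0.16, Mir199a-2 −0.32 and Mir199b −0.47. The part of sharing or of level in these ratios was not tested. Scaling to total counts lowered the median of all genes tested to −0.21. Under it Mir100 alone of the 6 was higher in replicate 2 (20.3% of all genes tested were), and Mir125b-1 and Mir125b-2 passed 0.5 at −0.57 and −0.62, as did 21.5% of all genes tested in either direction and 20.3% on the side lower in replicate 2. Relative to that median they stood at −0.36 and −0.41.

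Of the markers of other cells, those of neurons and glia summed to 0.430% in replicate 1 and 0.124% in replicate 2, nearly all of it Mir338, while the 6 loci of Mir124a and Mir9 were at 0. All 6 share 20-base windows with other hairpins, so reads of theirs may be in no gene's count. Endothelium, as Mir126a, held 8.54% and 9.58%, and smooth muscle with fibroblasts 8.67% and 9.46%. Most reads of the latter list were of Mir143, with 342752 of 358495 counts in replicate 1 and 293125 of 304648 in replicate 2. By TMM-scaled log2 ratio, Mir143 and Mir145a were higher in replicate 2 (0.30 and 0.28). Mir214, Mir199a-2 and Mir199b were lower (−0.34, −0.32 and −0.47). The Mir199 loci share 20-base windows with each other. Leukocytes held 0.233% and 0.242%, and red cells 0.0405% and 0.0394%. The part of these cells in the ratios of the 6 loci was not tested.

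**Figure D5:**
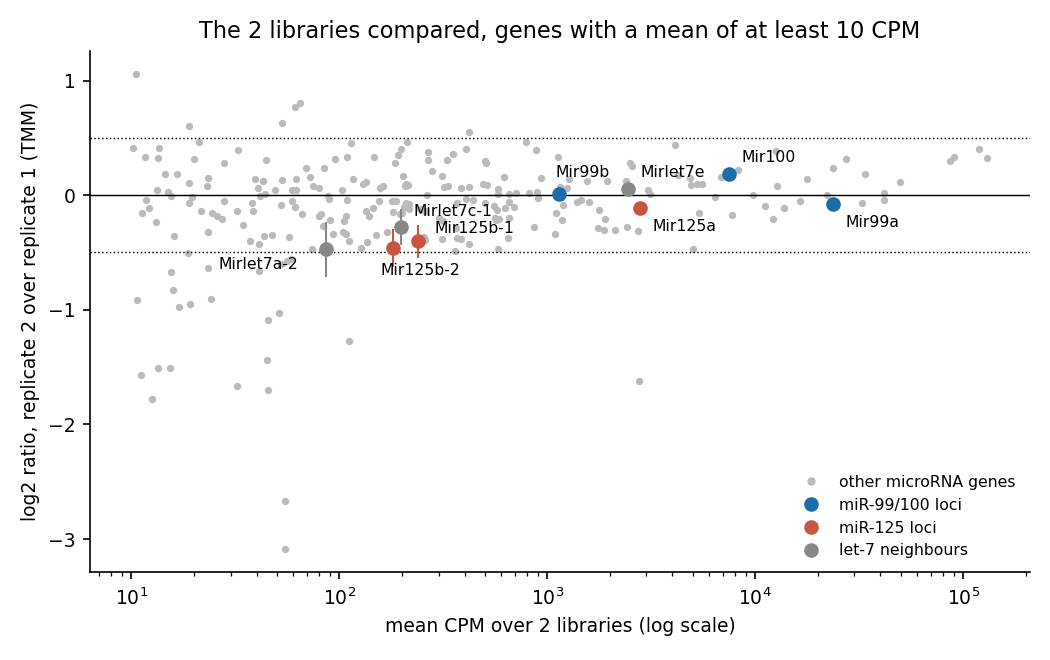
Log2 ratio of replicate 2 over replicate 1 (TMM-scaled CPM + 1) against mean CPM (log axis) for 261 genes, with the 6 loci and their let-7 neighbours in colour, bars for the exact 95% counting interval and dotted lines at a log2 ratio of 0.5 in size. None of the 6 passes a dotted line, and Mir125b-1 and Mir125b-2, at −0.40 and −0.46, lie lowest among them.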

How the data were processed

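Small RNA libraries of 2 gastrocnemius samples were analysed as 1 group. The authors deposited 1 table of read counts per library, on mm10 with GENCODE M21, per the labels and the descriptions deposited with the files. How reads were trimmed, aligned and counted is not given in the sources used here. A table has 3 count columns (ignoring strand, on the gene's strand, on the opposite strand). Its 4 rows that name no gene, 79.0% of reads in replicate 1 and 80.8% in replicate 2, stayed out of library sizes and tests.

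From the same-strand counts, CPM, shares with exact Clopper-Pearson 95% intervals, and log2 ratios of counts + 0.5 between 15 pairs were computed. Ratios between libraries used CPM + 1 with TMM scaling by edgeR 4.0.16 (R 4.3.3), which trims extreme genes, in genes that averaged 10 CPM or more. Adding 1 CPM shrinks the ratio of a low gene. With 1 group no test between conditions was possible, and DESeq2 1.42.0 gave size factors for an alternative. Ratios were checked on simulated libraries. Windows of 20 bases, on both strands, were compared between all 2202 hairpins of the GENCODE M21 transcripts. Whether they occur elsewhere in the genome is not analysed here, nor are CAST alleles, which can lower a count.

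The 6 loci were all named, with their let-7 neighbours, Mir10a, Mir10b, Mir351, the genes next above and below each in mean CPM, and muscle markers. Genes and lists were chosen with earlier results of these data known. Beyond numbering the males apart, the labels do not tell biological spread from technical spread. Alternatives were the column ignoring strand, other library sizes, scalings, pseudocounts and minimums, and each library alone. In the marker lists, Mir142a and Mir146a were matched as Mir142 and Mir146.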

Additional observations from a re-analysis of the deposited data

How the results depend on the processing

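The 6 loci held 3.56% of counted reads, or 4.73% in the column that ignores strand, 4.09% without the most abundant gene in the library size, and 0.716% of all reads. Each library alone gave 3.32% to 3.79%. The log2 ratio of the miR-99 and miR-100 loci over the miR-125 loci was 3.34. It ran from 3.27 to 3.41 in each library alone and kept its value to 2 decimals with a pseudocount of 1 or 5. None of these alternatives adds back reads aligned to several loci. Of 6 loci, 2 were higher in replicate 2 under every alternative run except total-count scaling, which gave 1. Of all genes tested, 20.3% were higher under total-count scaling. Under the other alternatives it was from 43.2% (no minimum) to 51.0% (DESeq2 size factors). These counts are not a result about the loci. The 31 of 261 genes past a log2 ratio of 0.5 became 56 of 261 under total-count scaling. The number was 3 of 165 with a minimum of 100 CPM and 174 of 639 with none. In the column that ignores strand, Mirlet7e, which Gm25927 overlaps on the opposite strand, is listed at 0, and the log2 ratio of Mir99b over Mirlet7e turned to 13.03. The other 14 pairs kept their direction under all alternatives run. Among them, Mir125a over Mirlet7e moved from 0.19 to 14.31 in the column that ignores strand. No paired analysis was possible because the series has 1 group. The limit that a count of 0 allows, up to 0.932 CPM, lay below all 6 loci.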

Other observations

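Mir125a and Mir338, which stand next to each other in mean level, changed places between the libraries. The log2 ratio of Mir125a over Mir338 was −0.49 in replicate 1 and 1.03 in replicate 2, with Mir338 at 4285 CPM in replicate 1 and 1236 CPM in replicate 2.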
